A study of Rattus norvegicus with 3 samples.

Results

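Inorganic phosphate filtered by the kidney is recovered in the proximal tubule by sodium-coupled carriers, and parathyroid hormone (PTH) sets how much is recovered. The 5 genes described here are Slc34a1 and Slc34a3, which encode the brush border carriers NaPi-IIa and NaPi-IIc, Slc20a1 and Slc20a2, which encode the carriers PiT-1 and PiT-2, and Pth1r, which encodes the receptor of PTH. They were chosen by symbol, taking every probe set (a group of short array probes for one transcript) annotated to 1 gene symbol that was one of these, which gave 5 of 14217 named genes and 8 of 20826 probe sets with 1 symbol. Slc34a1, Slc20a2 and Pth1r had 2 probe sets each, and Slc34a3 and Slc20a1 had 1.

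Binding of PTH to its receptor, a class B G protein-coupled receptor on proximal tubule cells, raises cyclic AMP and activates phospholipase C. NaPi-IIa is then withdrawn from the brush border and broken down, so that less phosphate is reabsorbed and more appears in the urine. NaPi-IIc follows more slowly, PiT-2 contributes a smaller share of uptake at the brush border, and PiT-1 serves phosphate supply in most cell types.

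The single group consisted of proximal tubules from male Sprague-Dawley rats 7 to 8 weeks old, measured on 3 Affymetrix rat arrays, 1 per tubule preparation. The labels name no genetic change. The rats had received 250 u of heparin 30 minutes before decapitation, and their kidneys were perfused with collagenase at 2 mg/ml. The cortex was digested for 20 minutes, and the tubules were separated on 42.5% Percoll, a density medium. No control group or undigested tissue was analysed here. The number of animals behind each preparation is not in the labels, so the spread over the arrays may be partly technical.

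Signals were deposited on a linear scale, and their medians over all non-control probe sets were 37.1, 37.4 and 34.9 on arrays 1, 2 and 3. A probe set is called above the median here when its signal exceeded that median on all 3 arrays, which is a line within the array and not a call of presence. By the probe set of highest mean signal, all 10 listed proximal tubule markers lay above it, and of the markers of other cell types 22 of the 47 with a probe set (50 listed) did, against 61.0% of all 14217 named genes. Members of 1 list differed. Of the podocyte genes, Nphs1 gave 12.9, 4.78 and 10.1 and Podxl 61.5, 109 and 102 on arrays 1, 2 and 3, and of the macrophage and leukocyte genes, Cd3d gave 1.77, 2.20 and 4.10 and Cd74 gave 4952, 3011 and 4827. Umod of the thick ascending limb gave 5474, 4209 and 5143. In such a bulk sample, fewer cells of a type and less RNA per cell cannot be told apart. Different probe sets bind their targets with different strength, so levels of different genes are not ranked. As a sign of RNA quality, the beta-actin control probe set near the 3' end divided by that near the 5' end gave 3.85, 3.28 and 3.66, and the GAPDH ratio was 1.52, 1.52 and 1.40, on arrays 1, 2 and 3.

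Of the 5 genes, 3 had an entry in the RefSeq promoter table (build GRCr8), and the 250 bases before each annotated start are shown, because they show how the promoters of the brush border carriers and of the receptor differ in letters. They are written 5' to 3' on the strand of the gene, all minus. Capitals mark matches on either strand to TATAAA (the TATA box), GTTAAT (a half-site of hepatocyte nuclear factor 1), GGGCGG (the GC box of Sp1 and related factors) and AGGTCA (a half-site of nuclear receptors). The windows are chr17:9238984-9239233 for Slc34a1, chr3:28447998-28448247 for Slc34a3 and chr8:119595572-119595821 for Pth1r.
Slc34a1: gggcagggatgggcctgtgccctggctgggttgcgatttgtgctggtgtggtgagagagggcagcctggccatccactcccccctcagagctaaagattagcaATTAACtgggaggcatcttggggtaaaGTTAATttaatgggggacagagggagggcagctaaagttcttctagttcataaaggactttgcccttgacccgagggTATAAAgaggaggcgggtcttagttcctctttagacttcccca
Slc34a3: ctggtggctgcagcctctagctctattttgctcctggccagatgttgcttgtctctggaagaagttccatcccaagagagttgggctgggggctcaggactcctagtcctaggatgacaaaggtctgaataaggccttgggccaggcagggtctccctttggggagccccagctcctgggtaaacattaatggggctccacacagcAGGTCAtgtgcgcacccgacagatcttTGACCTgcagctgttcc
Pth1r: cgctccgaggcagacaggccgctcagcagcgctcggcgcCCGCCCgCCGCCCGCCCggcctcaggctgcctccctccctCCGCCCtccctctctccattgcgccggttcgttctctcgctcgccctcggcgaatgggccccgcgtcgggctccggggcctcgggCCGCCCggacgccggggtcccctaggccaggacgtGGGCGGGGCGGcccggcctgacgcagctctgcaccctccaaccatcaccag

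The 3 windows held different motifs. In Slc34a1, TATAAA began 43 bases before the start, and GTTAAT matched at 147 bases before it, on the opposite strand, and at 120 bases before it. Over all 33469 promoter windows of this length, 12.9% held TATAAA and 6.45% held GTTAAT. In Slc34a3, AGGTCA began 44 bases before the start and lay on the opposite strand from 17 bases before it, and 14.1% of all windows held it. In Pth1r there were 7 matches to GGGCGG, some of which overlapped by 1 or 2 bases, and 30.5% of all windows held at least 1. The Pth1r window was 77.6% G and C, a share reached by 1.97% of all windows, against 53.2% for Slc34a1, 56.4% for Slc34a3 and a median of 51.2% over all windows. The gene's annotated span extends upstream of this Pth1r start, and in mouse the gene is known to have a kidney promoter upstream of a GC-rich promoter used in many tissues. These matches describe letters in the windows and do not show binding, and which start was used is not measured by the arrays.

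The mRNA of Slc34a1, which encodes the main brush border carrier NaPi-IIa, was measured by a pair of probe sets that behaved differently over the arrays. The arrays do not measure the carrier proteins. Probe set 1368680_a_at gave 10034, 9291 and 9521 on arrays 1, 2 and 3, with a mean of 9616 ± 380 (SD, n = 3). The 3 values lay close together, with a coefficient of variation of 3.96%. The suffix _a marks a probe set designed to match more than 1 transcript form of its gene. Probe set 1370610_at gave 4799.9, 4369 and 2688 on arrays 1, 2 and 3, a mean of 3952 ± 1116 (SD, n = 3) and a coefficient of variation of 28.2%. Array 3 was the low one, while arrays 1 and 2 lay close together.

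The plot of signals by probe set shows this contrast beside the other genes.

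**Figure D1:**
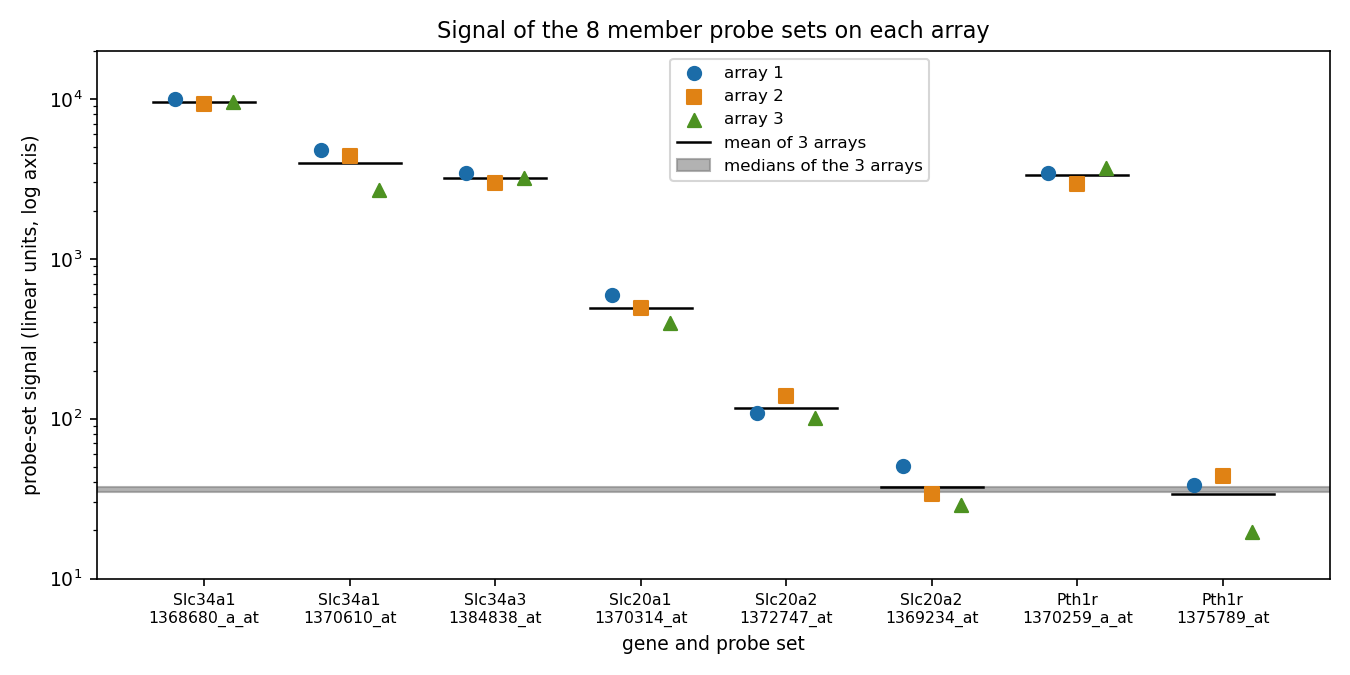
Signal of each of the 8 probe sets (log axis, linear signal units) on arrays 1, 2 and 3; short lines are means over the 3 arrays and the grey band spans the 3 array medians, 34.9 to 37.4. The 2 Slc34a1 probe sets averaged 9616 and 3952, and the lower Pth1r and Slc20a2 probe sets lay at the band.

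The 2 Slc34a1 probe sets differed most on array 3. The signal of 1368680_a_at was 2.09, 2.13 and 3.54 times that of 1370610_at on arrays 1, 2 and 3. The log2 of this ratio was 1.06, 1.09 and 1.82, so that it ranged over 0.76 log2 units, and over 0.025 without array 3. Of 2080 genes whose 2 highest probe sets both lay above the median, 207 (9.95%) had a ratio that ranged as widely, and the median range was 0.35. Slc34a1 thus lay among the wider pairs. This comparison was made after the values had been seen and is a description of 3 arrays, with no test.

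**Figure D2:**
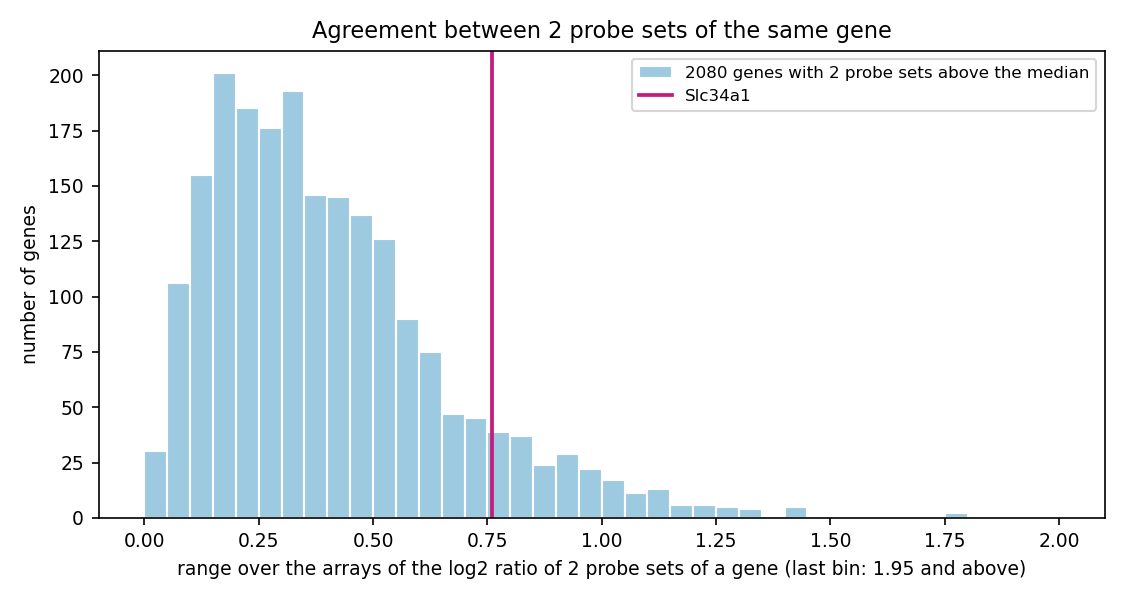
Number of genes (y axis) by the range over the arrays of the log2 ratio of their 2 highest probe sets (x axis, log2 units), for the 2080 genes with both probe sets above the median. The Slc34a1 line stands at 0.76, to the right of the median of 0.35, with 207 genes at or beyond it.

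Of 10 marker lists of other cell types, 6 had their highest summed signal on array 3, 3 on array 1 and 1 on array 2. Over all 47 measured markers of other cells the sums were 21265, 17249 and 20613 on arrays 1, 2 and 3. Much of these sums came from a few bright genes, such as Umod, Cd74 and Egf at 5474, 4952 and 4719 on array 1. The median deviation of the same markers, from each gene's mean on the centred log2 scale, gave another order. It was -0.15, -0.076 and 0.19 on arrays 1, 2 and 3, lowest on array 1 and highest on array 3. The 4 measured of 5 endothelial markers, all above the median, summed to 632, 883 and 1103 on arrays 1, 2 and 3. The 5 intercalated cell markers, of which 1 lay above the median, summed to 130, 157 and 224. The 4 measured of 5 distal convoluted and connecting tubule markers, of which 2 lay above the median, summed to 918, 849 and 1221. By sum, the 5 thick ascending limb markers, 4 of them above the median, were highest on array 1, at 12404, 10361 and 10976. So were the 6 macrophage and leukocyte markers, 1 of them above the median, at 5045, 3084 and 4899.6. The 3 red blood cell markers, 2 of them above the median, summed to 316, 178 and 192 and were also highest on array 1. Most of the macrophage and leukocyte sum was Cd74, at 4952, 3011 and 4827. The median deviation of that list was 0.019, -0.11 and 0.19, highest on array 3. The proximal tubule markers summed to 73881, 65744 and 70014. Array 3 lay between the others, as it did for the sum, but not the median deviation, over all markers of other cells. The median deviation of the proximal tubule markers was 0.074, -0.13 and 0.057. No marker was at 0, but signals far below the median, such as Lum at 0.708, 2.07 and 0.920, are no call of presence. The part of these cells in the array differences was not tested.

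The mRNA of Slc34a3, which encodes the electroneutral brush border carrier NaPi-IIc, was measured by 1 probe set. Probe set 1384838_at gave 3436, 2963 and 3219 on arrays 1, 2 and 3, a mean of 3206 ± 237 (SD, n = 3). It lay above the median on every array, and array 2 was the lowest, as it was for Slc34a1 probe set 1368680_a_at.

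The PiT carriers were first identified as cell surface receptors of gamma-retroviruses before their role in phosphate uptake was found. Their mRNAs were measured by 3 probe sets. Slc20a1 probe set 1370314_at gave 591, 492 and 395 on arrays 1, 2 and 3, a mean of 493 ± 98.4 (SD, n = 3). It lay above the median on every array, with array 3 the lowest. Slc20a2, whose product PiT-2 lies in the brush border, had a pair of probe sets that differed in level and in order. Probe set 1372747_at gave 108, 138 and 101, a mean of 116 ± 19.3 (SD, n = 3), with array 2 the highest. Probe set 1369234_at gave 50.4, 33.6 and 28.8, a mean of 37.6 ± 11.3 (SD, n = 3), and exceeded the array median on array 1 alone. The first lay above the median on all 3 arrays and the second at about the median, so the position of Slc20a2 relative to the median depends on the probe set.

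The level given by the PTH receptor gene also depended on the probe set. Pth1r probe set 1370259_a_at gave 3423, 2933 and 3713 on arrays 1, 2 and 3, a mean of 3357 ± 394 (SD, n = 3), with array 3 the highest. Probe set 1375789_at gave 38.4, 43.8 and 19.5, a mean of 33.9 ± 12.7 (SD, n = 3), with array 3 the lowest and below the array median. The second lay near or below the array median, so no fold between them is given. The control ratios given above were not highest on array 3, and the part of RNA quality was not tested. The probe sequences were not used here, so the transcript part each one measures is not stated.

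Counted together, 6 of the 8 probe sets lay above the median on all 3 arrays, against 54.5% of all 20826 probe sets with 1 symbol. Taking the probe set of highest mean signal for each gene, all 5 genes did, against 61.0% of all 14217 named genes. On the scale log2(signal + 16) minus the array median, the median level of the 8 probe sets was 4.60, against 0.53 over all probe sets with 1 symbol. The members were chosen with earlier results of these data known, so these counts are descriptions.

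All 8 ranged by less than 2-fold over the arrays on this scale, and with a pseudocount of 1 in place of 16 Pth1r probe set 1375789_at ranged over 1.03 log2 units. On the same log2 scale the range over the arrays ran from 0.12 for Slc34a1 probe set 1368680_a_at to 0.77 for Slc34a1 probe set 1370610_at. None of the 8 reached 1 log2 unit (2-fold), against 4.72% of all probe sets with 1 symbol and 1.41% of those above the median. The median range of the 8 was 0.46, against 0.35 over all probe sets with 1 symbol. It was 0.29 over those above the median, a value that 6 of the 8 exceeded. A range as large as 0.77 was found in 4.12% of probe sets above the median, and one as large as 0.12 in 89.7%.

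**Figure D3:**
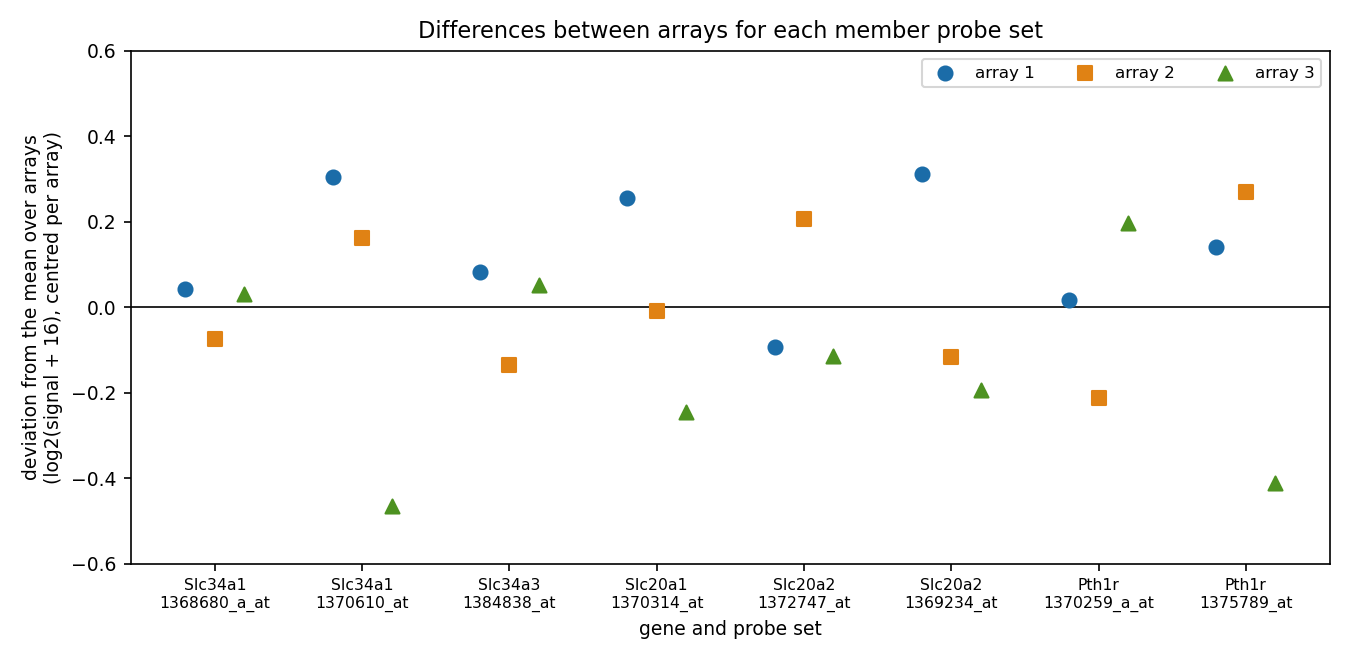
Deviation of each array from the probe set's mean over the 3 arrays, as log2(signal + 16) centred on the array median, for the 8 probe sets. Array 3 is low for Slc34a1 1370610_at (-0.47) and Pth1r 1375789_at (-0.41), and high for Pth1r 1370259_a_at (0.20).

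The deviations had no common order over the arrays. Array 3 was the lowest for 5 of the 8 probe sets, namely both of Slc20a2, that of Slc20a1, Slc34a1 1370610_at and Pth1r 1375789_at. Array 2 was the lowest for the other 3, namely Slc34a1 1368680_a_at, that of Slc34a3 and Pth1r 1370259_a_at.

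With 3 arrays, likeness of pattern says little. By the Euclidean distance between deviations over the 3 arrays, the genes nearest to Slc34a1 probe set 1368680_a_at were Srgap2, Mlst8 and St6galnac3. Within 0.1 log2 units on every array there were 2548 of 8673 other genes above the median (29.4%). For Slc34a1 probe set 1370610_at the nearest were Orc6, Thg1l and Tra2a, with 54 genes (0.623%) within that distance. For Pth1r probe set 1370259_a_at the nearest were Smap2, Grb7 and Dnajc27, with 821 genes (9.47%) within it. For Pth1r probe set 1375789_at they were Emsy, H2ax and Mks1, with 48 genes (0.553%) within it.

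The other genes of phosphate handling and PTH action were taken from lists and represented by the probe set of highest mean signal. Other probe sets of a gene could lie far lower. The lowest averaged 14.7 for Gnas, 164 for Nherf1 and 266 for Hnf4a. For others the probe sets lay closer, as for Atp1b1 (9127 and 6843). The values below are thus those of 1 probe set per gene. Over all 8 lists, 79 of 87 listed genes had a probe set and 69 lay above the median on all 3 arrays, again against 61.0% of all named genes. Their median level was 2.93 log2 units over the array median, against 1.09 for all named genes. Of the 79, 2 ranged by 2-fold or more, against 4.46% of all named genes; these were Slc34a2 and Rgs2.

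**Figure D4:**
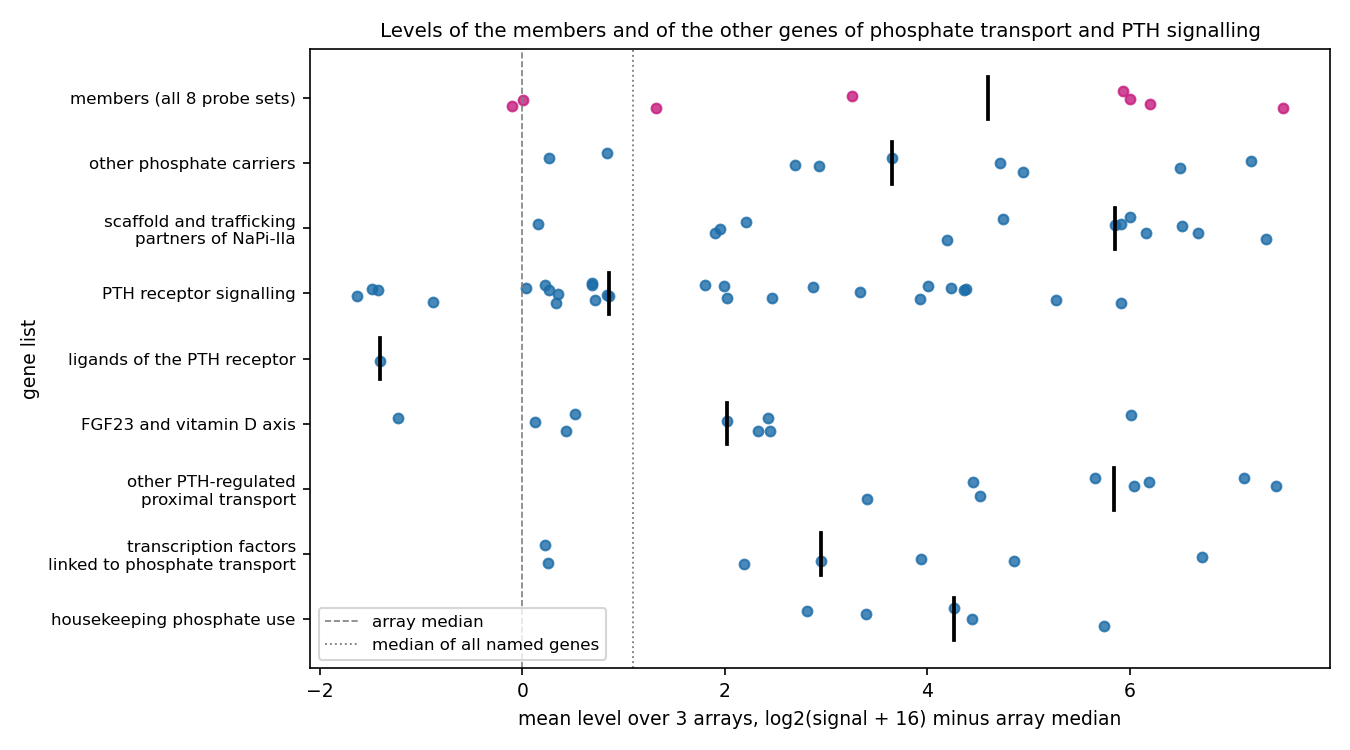
Mean level over the 3 arrays, as log2(signal + 16) minus the array median, of the 8 member probe sets (top row) and of each gene in the 8 lists; black bars are medians of a row. The dashed line marks the array median and the dotted line the median of all named genes, 1.09; different genes are not ranked, since probe sets differ in affinity.

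Among other carriers of phosphate or phosphate compounds, 8 of 9 lay above the median, against 61.0% of all named genes. Slc34a2, the NaPi-IIb carrier of gut and lung, was the exception and gave 24.9, 54.4 and 70.9 on arrays 1, 2 and 3 (mean 50.1 ± 23.3). Slc25a3, which carries phosphate into mitochondria, gave 7703 ± 525, and Xpr1, the phosphate exporter of the plasma membrane, gave 646 ± 40.2 (SD, n = 3 each). Slc17a1 and Slc17a3, organic anion and urate carriers first described with phosphate transport, gave 1602 ± 112 and 1372 ± 123. Ankh, an exporter of pyrophosphate and ATP, gave 77.9 ± 1.78.

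Scaffold and trafficking partners of NaPi-IIa lay above the median in 12 of 13 cases, against 61.0% of all named genes. Nherf1, a PDZ protein that binds both NaPi-IIa and the PTH receptor, gave 3003, 2854 and 3232 on arrays 1, 2 and 3 (mean 3029.7 ± 191). Pdzk1, a related scaffold, gave 5356 ± 119, and its partner Pdzk1ip1 gave 3359.8 ± 244. Ezr, which ties the scaffold to actin, gave 3749 ± 216, and Myo6, a motor of NaPi-IIa withdrawal, gave 1401 ± 118. Shank2 gave 182 ± 27.8. Nherf2 gave 30.7, 39.4 and 60.6, and was the 1 gene of this list not above the median on all arrays.

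In PTH receptor signalling, 21 of 27 measured genes of 29 listed lay above the median, against 61.0% of all named genes. The median level of this list, however, was 0.86 log2 units over the array median, below the 1.09 of all named genes. Gnas, the stimulatory G protein, gave 3072, 2799.8 and 3602 on arrays 1, 2 and 3 (mean 3158 ± 408). Gnaq and Gna11, the G proteins that activate phospholipase C, gave 47.2 ± 7.48 and 68.6 ± 9.66, and Plcb1, a phospholipase C, gave 978 ± 91.8. The protein kinase A genes gave 199 ± 64.8 for the catalytic Prkaca, 1066 ± 128 for the catalytic Prkacb and 1083 ± 124 for the regulatory Prkar1a. Sik2 and Sik3, kinases held in check by protein kinase A, gave 789 ± 104 and 521 ± 98.9. Arrb1 and Arrb2, which encode arrestins, gave 45.3 ± 6.67 and 50.6 ± 9.61. Rgs2, a regulator of Gq, gave 58.1, 25.95 and 80.1 and was the lowest on array 2, where it lay below the median. Of the adenylyl cyclase genes, Adcy6 gave 199 ± 31.2 and lay above the median on all arrays. Adcy9 (37.9 ± 2.63) and Adcy3 (3.53 ± 1.59) did not. Rgs14, Pde4a and Pth2r lay below the median on every array, with means of 12.5, 2.71 and 0.865.

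A receptor related to Pth1r and the 1 ligand gene measured of 3 listed both lay below the array median on all 3 arrays. Pth2r gave 1.58, 0.424 and 0.593, and Pth, the hormone made in the parathyroid gland, gave 1.58, 1.66 and 9.05.

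Of the other lists, transport under PTH control counted 8 of 8 measured genes above the median. This count and those of the lists below stand against 61.0% of all named genes. The sodium-proton exchanger Slc9a3, which PTH inhibits, gave 1199 ± 180. The transcription factors linked to phosphate transport counted 7 of 7, with Hnf4a at 5488 ± 364 and Tfe3, tied to dietary phosphate, at 224 ± 5.25. Genes of phosphate release and pyrophosphate turnover, labelled housekeeping phosphate use in the plot of levels by list, counted 5 of 5, with Alpl, tissue-nonspecific alkaline phosphatase, at 1127 ± 127 and Enpp1 at 352 ± 10.7. The FGF23 and vitamin D list counted 8 of 9 measured genes, and Cyp24a1 had no probe set. Of its vitamin D genes, Cyp27b1 gave 46.2, 38.6 and 38.8, just over the array medians of 37.1, 37.4 and 34.9. Rxra and Vdr gave 54.9 ± 8.68 and 59.9 ± 12.9. Kl, the co-receptor of the phosphate-lowering hormone FGF23, gave 228, 163 and 206 on arrays 1, 2 and 3, and Fgf23 itself gave 6.26, 2.38 and 11.5, below the median on every array. Sgk1, a kinase of the same list, ranged over 0.89 log2 units, at 4879, 2630.1 and 2964.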

How the data were processed

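Probe-set signal intensity on a linear scale was taken from the series' value table as deposited. Per the labels' protocols, RNA came from a Trizol extraction and was turned into biotinylated cRNA by Affymetrix's standard procedure; the summarisation and the scaling between arrays are not given in the sources used here. The table held 31099 probe sets, of which 57 were controls, 436 named several genes and 9780 had none named here; these were left out of gene values. Symbols came from the platform annotation, and 20758 of the 20826 probe sets with 1 symbol matched a RefSeq gene table (GRCr8) by gene identifier, with 0 symbols changed.

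For comparisons between arrays, log2(signal + 16) was centred on each array's median. With 1 group there was no test between conditions, and the 3 arrays limit the precision. Members, gene lists and line were chosen with earlier results of these data known. Genes named outside the members are those of the lists and the 3 nearest in pattern. The range calculation was tested on simulated data. Tools were Python 3.11.15, pandas 2.3.3, numpy 2.4.6 and matplotlib 3.10.9. Alternatives were pseudocounts of 1 and 64, no centring, quantile normalization, lines at the 25th and 75th percentiles, averaged probe sets, no shared-transcript suffix, no lowest 20% of genes, and each array left out.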

Additional observations from a re-analysis of the deposited data

How the results depend on the processing

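The 3 arrays limit every value, and quantile normalization moved the mean signal of each member probe set by less than its SD. With a pseudocount of 1, 1 member probe set (Pth1r 1375789_at, range 1.03) reached a 2-fold range. Quantile normalization narrowed the range to 0.024 for Slc34a1 1368680_a_at and 0.027 for Slc34a3, against 0.12 and 0.22. Counts of list genes fell with a line at the 75th percentile, to 11 for PTH receptor signalling and 4 for the FGF23 and vitamin D list, against 21 and 8; 36.4% of all named genes lay above that line. Member probe sets above the line were 8 at the 25th percentile, 5 at the 75th and 6 to 7 with an array left out. Leaving out each array in turn gave log2 ranges of 0.14 to 0.77 for Slc34a1 1370610_at, 0.013 to 0.12 for 1368680_a_at, 0.030 to 0.22 for Slc34a3, 0.24 to 0.50 for Slc20a1, 0.020 to 0.32 for Slc20a2 1372747_at, 0.076 to 0.51 for 1369234_at, 0.18 to 0.41 for Pth1r 1370259_a_at and 0.13 to 0.68 for 1375789_at. For the log2 ratio of the Slc34a1 probe sets, an alternative set added after the data were seen, the range was 0.025 to 0.76; a range over fewer arrays can only be equal or smaller. No paired analysis was possible because all arrays form 1 group.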
